A study of Homo sapiens with 18 samples.

Results

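How many ribosomes an mRNA carries was measured in replicatively senescent human fibroblasts by setting the ribosome footprints of each gene against its mRNA in the same lysate. The cells were IMR90, a fibroblast line derived from human fetal lung, and "old" cells had been passaged until they entered senescence. From each of 3 independent old lysates, prepared with cycloheximide to hold ribosomes in place, 1 Ribo-seq library was made from nuclease-protected fragments and 1 poly(A)-enriched mRNA-seq library from a share of the same lysate. These 6 libraries are part of a set of 18, which also held 3 lysates of low-passage proliferating IMR90 ("young") and 3 of proliferating IMR90 treated with ICM (inflachromene, a small molecule that binds HMGB1 and HMGB2). All 3 groups were of this 1 line, and a share of old cells that had not arrested cannot be told apart from arrested cells in a lysate. Of 38716 gene symbols counted, 15813 had at least 1 read in the coding sequence (CDS) in the old libraries, and 8685 passed a filter of 10 CPM (reads per 1000000 CDS reads, scaled) on the mean of the Ribo-seq and mRNA-seq means.

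A ribosome reads an mRNA codon by codon and shields a short stretch of it from nuclease, so footprints over the CDS count ribosomes that were on the message. The number of ribosomes per message depends on how often they start and how fast they run, and several classes of mRNA carry sequence that sets how often they start. Short reading frames in the 5′ UTR capture scanning ribosomes ahead of the CDS, and in stress response genes such as ATF4 they couple translation to the activity of initiation factor eIF2. Iron-responsive elements are hairpins to which iron regulatory proteins bind when iron is scarce, which blocks initiation on the ferritin mRNAs. Messages of ribosomal proteins and elongation factors start with a terminal oligopyrimidine (TOP) tract through which mTOR signalling and LARP1 set their translation.

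The sequences of these 3 kinds of element are given for the members whose loads are described below. Iron-responsive elements are recognised by a loop with the letters CAGTGN, shown in capitals in the 5′ UTR of the GENCODE transcript (GRCh37) together with its flanks. In FTH1 the window is chr11:61735045-61735074 on the minus strand, in FTL chr19:49468592-49468621 on the plus strand and in EPAS1 chr2:46524618-46524647 on the plus strand.
FTH1: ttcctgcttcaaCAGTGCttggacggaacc
FTL: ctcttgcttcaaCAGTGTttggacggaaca
EPAS1: tacaatcctcggCAGTGTcctgagactgta
The loop begins 45 bases from the transcript start in FTH1, 39 in FTL and 85 in EPAS1. These 6 letters alone are common: on the sense strand, with any base but G at the end, they occur in 998 of 8578 tested genes' 5′ UTRs, or 11.6%.

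Short upstream reading frames are shown for ATF4 (GRCh37, chr22:39916647-39916670, plus strand) and ATF5 (chr19:50432525-50432548, plus strand), transcription factors of the integrated stress response. The capitals run from the upstream ATG to its stop codon.
ATF4: gccaccATGGCGTATTAGgggcag
ATF5: ccggccATGGCTCTGTAGcctcga
Each frame shown has 3 codons before the stop. The 5′ UTR of ATF4 (282 bases) holds 3 ATGs, the last of which opens a frame of 59 codons that overlaps the CDS, and that of ATF5 (315 bases) holds 2.

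Terminal oligopyrimidine tracts are shown from the RefSeq promoter table (GRCh38.p14), with 10 bases before the annotated start and the pyrimidine run from the start base in capitals. The windows are chr6:73521013-73521042 (minus) for EEF1A1, chr19:3985444-3985473 (minus) for EEF2, chr12:120201092-120201121 (minus) for RPLP0, chr13:45341164-45341193 (minus) for TPT1 and chr19:5690285-5690314 (plus) for RPL36.
EEF1A1: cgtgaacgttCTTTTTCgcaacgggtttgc
EEF2: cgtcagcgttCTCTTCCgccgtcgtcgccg
RPLP0: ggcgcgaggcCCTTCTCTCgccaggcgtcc
TPT1: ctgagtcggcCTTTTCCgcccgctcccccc
RPL36: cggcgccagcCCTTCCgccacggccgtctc
A start with C followed by 4 or more pyrimidines was found in 422 of 7036 tested genes with an entry (6.00%) and in 1104 of all 27305 promoters in the table (4.04%). These 5 genes all have such a start, and their loads run from far below the typical gene to above it.

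Old footprint libraries differed in depth. Old replicates 1 and 3 held 1672807 and 583798 CDS footprints, and old replicate 2 held 54708, with CDS reads making up 77.8%, 54.7% and 15.0% of all assigned reads in replicates 1, 3 and 2. The mRNA-seq libraries held 6246797 to 8750873 CDS reads. Over the 3718 genes of at least 50 CPM, Ribo-seq replicates 1 and 3 were alike (Spearman 0.962), replicate 2 was further off (0.823 and 0.818), and footprints tracked mRNA of the same lysate less closely (0.620 to 0.685). These correlations are across genes, which are not independent replicates. The cells carried fibroblast markers: all 10 of 10 were above 0 in every library and summed to 40504 to 56872 CPM. The epithelial list summed to 329 to 727 CPM, nearly all KRT8 and KRT18 with EPCAM at most 1.89 CPM, the endothelial list to 86.1 to 180 CPM, mostly TEK with PECAM1 at most 0.115 and KDR at 0, and the leukocyte list to 16.4 to 42.2 CPM, mostly CD68 with CD3E at 0.

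The ribosome load of a gene is given as log2 of its Ribo-seq CPM over its mRNA-seq CPM in the CDS, so 0 is the load of the typical gene and 1 is a 2-fold excess of footprints. It is relative: a change in total protein synthesis is not seen, and slower elongation adds footprints as faster initiation does. The load spanned a wide range in old cells. Its median was -0.02, with quartiles at -0.61 and 0.46 and 5% of genes below -1.78 or above 1.15. By edgeR's quasi-likelihood test with the lysate as a block (Benjamini-Hochberg adjusted p under 0.05), 2174 of 8685 genes (25.0%) had a higher and 2449 (28.2%) a lower load than 0. A load over 1 was called in 594 genes (6.84%) and one under -1 in 1308 (15.1%). The filter on the mean of both assays bears on these counts. The 311 tested genes with an mRNA-seq mean under 10 CPM passed on footprints, so their loads had to be high. The 615 with a Ribo-seq mean under 10 CPM passed on mRNA, so their loads had to be low. The log2 ratio had the same sign in all 3 lysates for 1605 of the higher and 2166 of the lower genes. Old replicate 2 had no footprint in 1402 of the tested genes, so loads of low genes rest on the other lysates. A single footprint in that library equals 16.4 CPM, so its low CPMs rest on few reads.

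**Figure D1:**
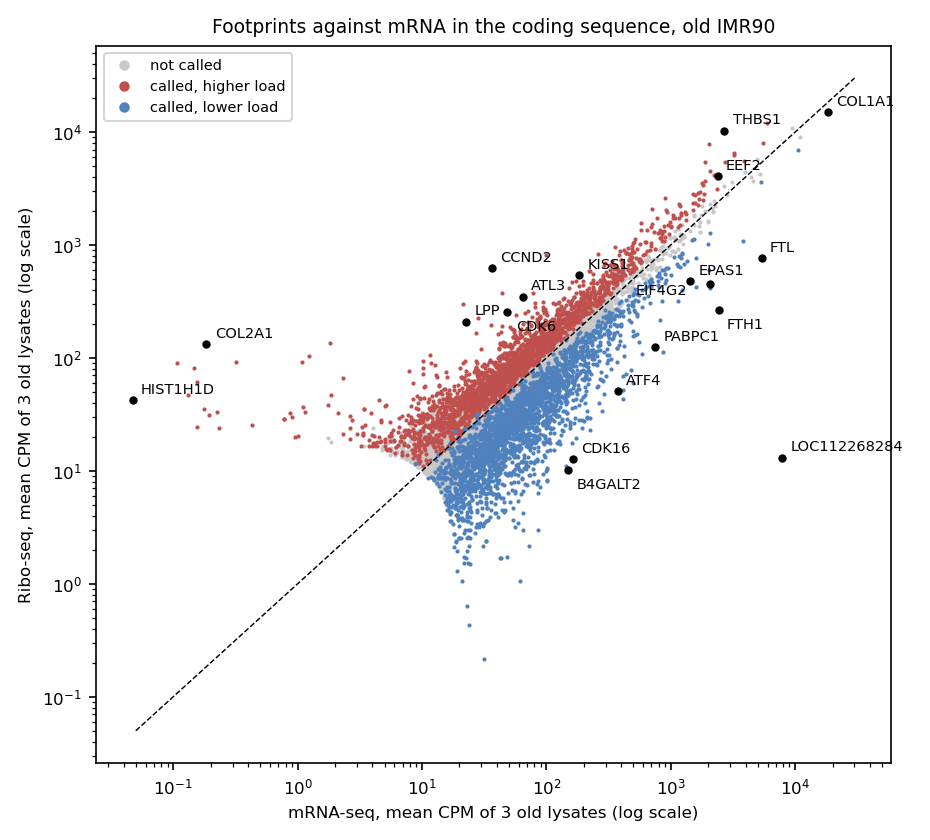
Each point is 1 of the 8685 tested genes, with its mean mRNA-seq CPM over 3 old lysates on the x axis and its mean Ribo-seq CPM on the y axis, both on log scales, and the dashed line marks a load of 0. Red points are the 2174 genes called higher and blue points the 2449 called lower; THBS1 lies above the line at high mRNA, FTL, FTH1 and EIF4G2 lie well below it, and genes such as COL2A1 and HIST1H1D have footprints with almost no mRNA.

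The mRNAs with the fewest footprints for their amount were of genes with low footprint totals and, for the most part, upstream ATGs. CDK16, a cyclin-dependent kinase with 3 ATGs in its 5′ UTR, had 16, 1 and 6 footprints in lysates 1 to 3. These gave Ribo-seq CPMs of 10.4, 16.4 and 11.4, against mRNA-seq CPMs of 167, 159 and 162. The load of CDK16 was -3.92 (SE 0.23, edgeR adjusted p = 4.98e-15), the footprint level of every lysate lying below every mRNA level. B4GALT2, a galactosyltransferase with 3 upstream ATGs, had 21 footprints against 3239 mRNA-seq reads, and PCSK7, a proprotein convertase with 3, stood at -3.35 on 43 footprints. MARCH4, a ubiquitin ligase, stood at -3.78 on 15 CDS footprints, and its 5′ UTR, which holds 7 ATGs, carried 30. Its mRNA-seq reads were 2053 in the CDS and 2304 in the 5′ UTR. ZNF219 stood at -4.42 on 10 footprints, GTF3A, the ribosomal 5S RNA transcription factor, at -3.58 on 17 with no upstream ATG, and NSMF at -3.33 on 16. In NSMF old replicate 2 was at 65.5 CPM against 4.57 and 9.47 in the others, and the load without that lysate was -3.74. LOC112268284, the lowest of all at -11.01, had 165336 mRNA-seq reads and 10 footprints, and it has no GENCODE CDS under that name.

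Among well-measured genes with no near-identical relative in this transcriptome, the highest loads included those of LPP, ATL3, CDK6, DPYSL2, SPCS3, THBS1 and ATP6V1A, a set singled out after their values were seen. LPP, an adaptor of focal adhesions, had 166, 262 and 201 Ribo-seq CPM against 25.2, 14.6 and 27.8 mRNA-seq CPM, a load of 2.90. ATL3, an atlastin that shapes the endoplasmic reticulum, had 324, 361 and 360 against 67.4, 57.5 and 69.9, a load of 2.35. In both genes the footprint level of every lysate was above every mRNA level. CDK6, a kinase of the G1 phase, stood at 2.34 and DPYSL2, a microtubule-binding protein, at 2.10. SPCS3, a subunit of signal peptidase, stood at 1.98 and ATP6V1A, the catalytic subunit of the lysosomal proton pump, at 1.89. Part of these values depends on which mRNA reads are counted. With reads of the 5′ and 3′ UTR added to the mRNA side, the load of LPP was 0.30 and that of CDK6 turned to -0.53, and SPCS3 at 0.23 no longer passed the test, while ATL3 stayed at 1.39, DPYSL2 at 1.67 and ATP6V1A at 1.70.

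Most of the largest loads of all belonged to genes with few mRNA-seq reads. Of those named below, RPL10L, CCND2, ACTC1, ACTA1 and ACTN3 had more, with 982, 798, 617, 470 and 261. COL2A1, a cartilage collagen, had 113, 164 and 123 Ribo-seq CPM against 0.325, 0.229 and 0 mRNA-seq CPM (fitted load 9.32, which is no bound at so few mRNA-seq reads), and 3.18% of the 28-base words of its CDS lie within 2 mismatches of an abundant transcript, mostly COL1A1. Actin genes of muscle and the ACTB-like gene ACTBL2 stood at 6.27 (ACTBL2, 17.1% of words near ACTB), 3.72 (ACTA1, 41.0%) and 3.02 (ACTC1, 43.0%). The ribosomal protein copy RPL10L stood at 3.16 (41.6% near RPL10), the muscle actinin ACTN3 at 3.11 (15.3% near ACTN1) and the cyclin CCND2 at 4.13 (5.36% near CCND1). Counting transcripts of any level, CCND2 shares 82.5% of its 28-base words with those of other genes. Near copies of at least 1% were present in 611 of 8632 tested genes with a GENCODE CDS (7.08%), in 93 of 590 called with a load over 1 (15.8%), in 86 of 1293 called under -1 (6.65%) and in 19 of 40 called over 3 (47.5%). Footprints are shorter than the mRNA-seq reads, and how reads that map to several genes were placed is not stated for these libraries, so the split of reads between such relatives is uncertain. Of the 40 genes over 3, 34 had an mRNA-seq mean under 10 CPM and 16 were histone genes. Over all 8632 genes these counts were 308 and 26. Of the 590 over 1, 144 had an mRNA-seq mean under 10 CPM. Such genes passed the filter on footprints alone, so a high load was fixed in advance and is no result about them.

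By class, the mRNAs with known regulatory upstream reading frames had the lowest median load (-1.18 over 19 tested of 20 listed). Of these 19, 13 were called lower and 1 higher, where the background was 28.2% and 25.0%. Counts of the classes below are read against the same shares. The class name does not match the annotated 5′ UTR of every member: OAZ1, EIF1, CEBPB and EPRS hold no ATG there. ATF4, the main effector of the integrated stress response, had 62.0, 49.2 and 41.6 Ribo-seq CPM against 361, 420 and 345 mRNA-seq CPM, a load of -2.72 (SE 0.17, edgeR adjusted p = 2.33e-14). Every footprint level was below every mRNA level. PPP1R15A, the phosphatase subunit that reverses eIF2 phosphorylation, had 20.2, 81.9 and 37.9 against 193, 201 and 214 (-2.85). SLC35A4 had 3.26, 32.8 and 7.57 against 50.2, 48.3 and 54.5 (-3.27, SE 0.34, edgeR adjusted p = 1.59e-09), from only 11 CDS footprints. In both genes replicate 2 was the highest footprint library, and without it the loads were -2.97 and -3.53. OAZ1, antizyme, which is made through a ribosomal frameshift, stood at -1.67, and AZIN1, the antizyme inhibitor, at -1.46. MDM2, the ubiquitin ligase of p53, was the one member called higher, with 117, 164 and 108 Ribo-seq CPM against 44.8, 41.6 and 44.3 (1.39, edgeR adjusted p = 3.01e-09), though its load with whole-transcript mRNA reads was 0.31 and no longer passed. Of the others, EIF1 (0.08) did not pass, with -0.64 when UTR reads were added, and UCP2 (-1.53) lost its call without replicate 1.

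**Figure D2:**
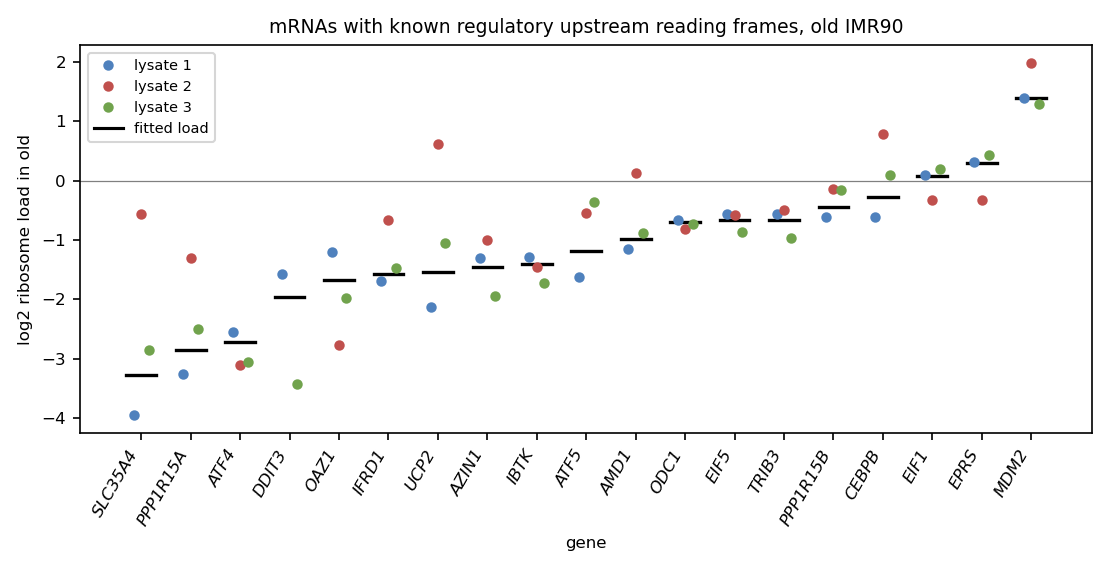
Points are the log2 ratio of Ribo-seq to mRNA-seq CPM in each of 3 old lysates for the 19 tested mRNAs with known regulatory upstream reading frames, and bars are the fitted load. Most lie below 0, from SLC35A4 at -3.27 to MDM2 at 1.39; DDIT3 has no point for lysate 2, where it had no footprint, and lysate 2 is the highest for SLC35A4, PPP1R15A and UCP2.

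In several of these genes footprints were as many ahead of the CDS as in it. Summed over the 3 lysates, ATF4 had 274 footprints in its 5′ UTR and 120 in its CDS, or 228 per 100, against 41.9 per 100 in mRNA-seq, counts that are not scaled for the length of either region. SLC35A4, with 11 upstream ATGs, had 132 against 11, and UCP2, a mitochondrial carrier with 3, had 102 against 28. AZIN1 had 122 against 134 and ATF5 28 against 27. In mRNA-seq the 5′ UTR held 100 reads per 100 in the CDS in SLC35A4, 46.8 in UCP2, 44.9 in AZIN1 and 90.7 in ATF5. For ATF5 this was close to the 104 per 100 of its footprints. MDM2 had 5.69 per 100 (mRNA-seq 15.2), and OAZ1 1.06. Of 3749 tested genes with at least 100 CDS footprints, 4 had more in the 5′ UTR than in the CDS: TP53I11, VPS53, RBFOX2 and ATF4. The median gene had 0.575 per 100.

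Across the transcriptome the load was lower in genes with more ATGs in their annotated 5′ UTR, a description of 8606 genes with no test. The median load was 0.17 in the 5390 genes with no upstream ATG, -0.25 in the 1568 with 1, -0.51 in the 743 with 2, -0.64 in the 372 with 3, -0.76 in the 195 with 4 and -0.79 in the 338 with 5 or more. Genes called lower made up 17.6% of those with none and 60.7% of those with 5 or more, and genes called higher 32.3% and 6.51%. In lysates 1, 2 and 3 taken alone, the medians for genes of at least 50 CPM went from 0.25, -0.05 and 0.28 with none to -0.88, -0.85 and -0.90 with 5 or more. Footprints in the 5′ UTR per 100 in the CDS went from 0.880, 1.08 and 0.393 to 13.8, 9.47 and 7.13, while mRNA-seq went from 16.3, 15.9 and 17.5 to 21.5, 19.8 and 22.3. Longer 5′ UTRs hold more ATGs, so genes were also split into 5 groups of like size by 5′ UTR length. From the shortest to the longest group, the median load of genes with an upstream ATG less that of genes without was -0.14, -0.40, -0.61, -0.66 and -0.77, and among genes without one the medians of the 5 length groups lay between 0.06 and 0.23. Across genes, load had a Spearman correlation of -0.35 with upstream ATG number, -0.23 with 5′ UTR GC content, -0.19 with 5′ UTR length, -0.18 with CDS length, -0.11 with CDS GC content and 0.09 with 3′ UTR length, all measured in the same 6 libraries.

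**Figure D3:**
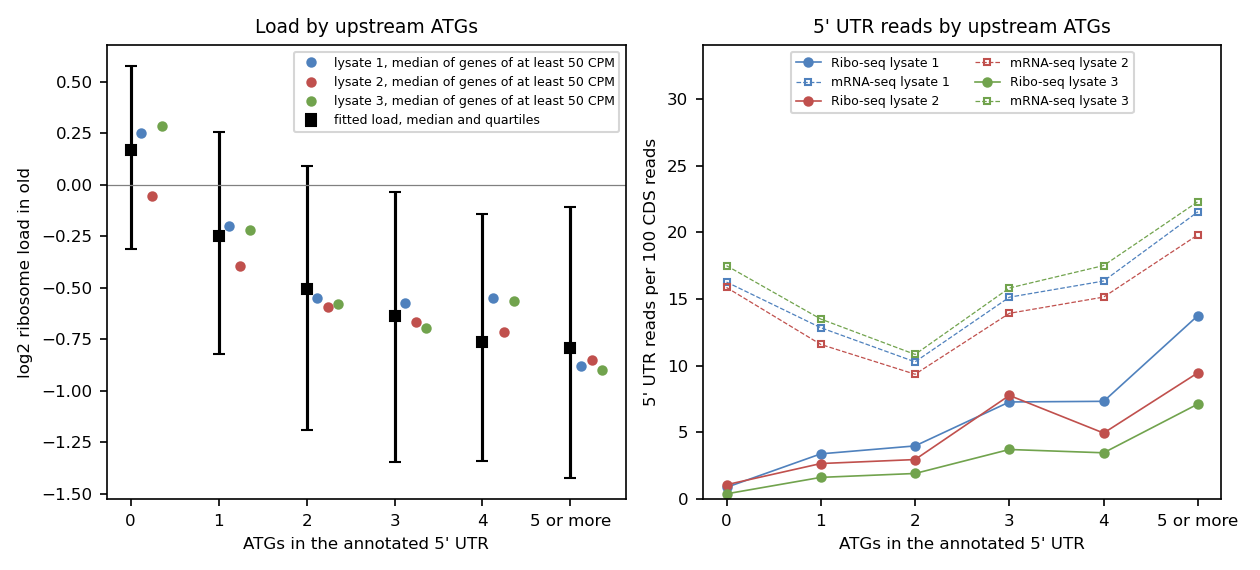
Left, median and quartiles of the fitted log2 load by number of upstream ATGs (black) with the median of each old lysate over genes of at least 50 CPM (coloured). Right, 5′ UTR reads per 100 CDS reads in Ribo-seq (filled) and mRNA-seq (open) for the same groups and lysates, without 5 symbols that hold most 5′ UTR footprints; the median load goes from 0.17 to -0.79 and 5′ UTR footprints of lysate 1 go from 0.880 to 13.8 per 100.

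Zinc finger proteins of the ZNF series, DNA-binding regulators with mostly low mRNA levels, had a median of -0.47 over 90 tested of 478 listed. Of the 90, 40 were called lower (44.4%, all genes 28.2%) and 7 higher (7.78%, all genes 25.0%), and 32 lay under -1. Members that passed the filter on footprints alone had to be high, as ZNF460 was (5.15, mRNA-seq 1.14, 1.61 and 0.706 CPM). Those that passed on mRNA alone had to be low, so the filter bears on both counts. Only 6 of the 90 reached 50 CPM, and their median was -0.42. ZNF703, with the most mRNA, stood at 0.06.

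The listed iron-responsive mRNAs differed widely in load. The ferritin subunits, which store iron, had some of the lowest loads of all abundant mRNAs. FTH1 had 286, 246 and 269 Ribo-seq CPM against 2456, 2716 and 2124 mRNA-seq CPM, a load of -3.10 (SE 0.18, edgeR adjusted p = 1.92e-15). FTL had 581, 967 and 736 against 5377, 5647 and 5126, a load of -2.90 (SE 0.19, edgeR adjusted p = 2.99e-14). No read of either assay was assigned to the 5′ UTR of FTL, beside 118647 mRNA-seq reads in its CDS. FTH1 had 29469.5 mRNA-seq reads in its 5′ UTR. Where reads of the FTL 5′ UTR were counted was not tested. EPAS1, the hypoxia factor HIF-2 alpha, had 402, 442 and 581 against 1450, 1317 and 1532, a load of -1.62 (SE 0.16, edgeR adjusted p = 4.26e-10). For all 3 genes, whose 5′ UTR loops are printed above, every footprint level was below every mRNA level. TFRC, the transferrin receptor, whose elements lie in the 3′ UTR, had 313, 442 and 390 against 185, 185 and 189, a load of 0.94 (SE 0.13, edgeR adjusted p = 3.75e-07). ALAS1, a haem synthesis enzyme whose relative in red cells has the element and whose own 5′ UTR holds no CAGTGN, stood at 0.41 and passed, and SLC11A2, an iron transporter (-0.06), did not. In all, 7 of 8 listed genes were tested, 3 called lower (42.9%, all genes 28.2%) and 2 higher (28.6%, all genes 25.0%), with a median of -0.06. Of their 28-base words, FTH1 shares 91.4% and FTL 62.7% with other transcripts, and EPAS1 shares 0%.

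The same genes were compared between states in a fit over all 18 libraries, whose CPMs are scaled together and differ slightly from those above. FTL carried more footprints per mRNA in old cells than in young or ICM cells. Its log2 ratio was -3.22, -2.53 and -2.82 in old lysates, -3.45, -5.24 and -5.07 in young and -4.70, -5.06 and -4.82 in ICM, with no overlap between old and either other state. The load difference was 1.88 against young (SE 0.22, edgeR adjusted p = 1.9e-14) and 1.95 against ICM (SE 0.21, edgeR adjusted p = 5.68e-16), and it kept its call in every alternative. The underlying levels moved apart: FTL mRNA was 5591 ± 246 CPM in old, 6933 ± 364 in young and 46868 ± 2734 in ICM, and its footprints were 791 ± 209, 341 ± 255 and 1614 ± 156 CPM (SD, n = 3 each). Young replicate 1 was the young lysate nearest to old, and without it the difference was 2.26. FTH1, at -3.11, -3.45 and -3.00 in old against -3.83, -4.08 and -4.32 in young and -4.13, -4.79 and -4.86 in ICM, differed by 1.03 (SE 0.25, edgeR adjusted p = 0.00624) and 1.38 (SE 0.25, edgeR adjusted p = 5.01e-05). EPAS1, at -1.86, -1.55 and -1.42 in old against -2.73, -2.73 and -2.81 in young, differed by 1.14 (SE 0.26, edgeR adjusted p = 0.00235), while its difference from ICM, 0.51 (SE 0.30, edgeR adjusted p = 0.57), did not pass. The calls of FTH1 and EPAS1 against young did not hold with fewer lysates, though the differences moved little. That of FTH1 was lost without old replicate 1 or 3 or young replicate 2 or 3 (differences of 0.94 to 1.11, edgeR adjusted p 0.125 to 0.462), and that of EPAS1 without old replicate 3 or young replicate 2 or 3 (1.07 to 1.24, 0.12 to 0.261). TFRC was at -0.21 against young and 0.56 against ICM (edgeR adjusted p = 0.878 and 0.396), neither past the threshold. Across all 9004 genes tested, a higher load in old than in young was called for 0.211%, and in old than in ICM for 0.300%.

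**Figure D4:**
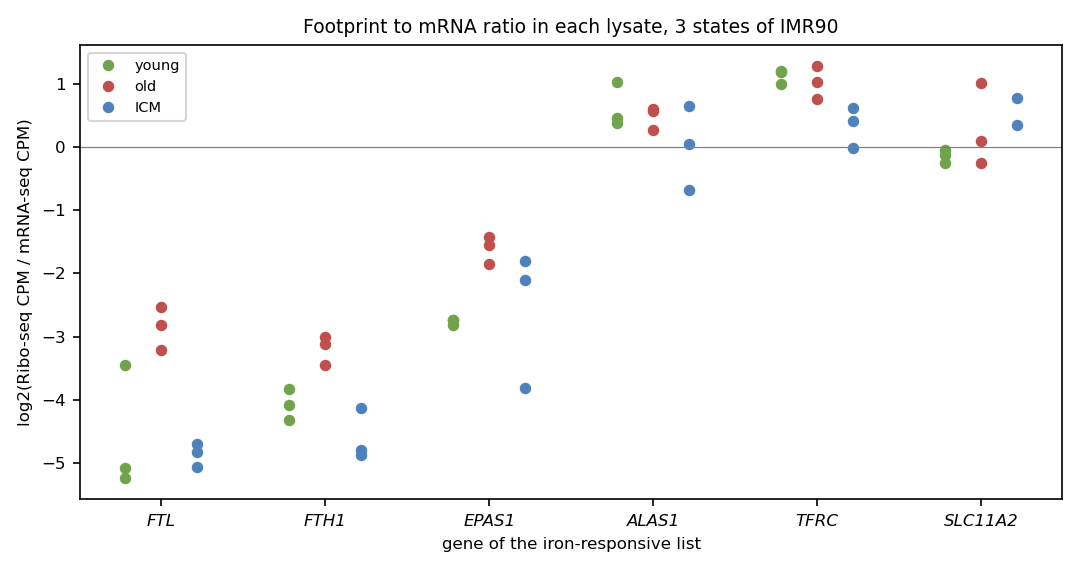
Points are the log2 ratio of Ribo-seq to mRNA-seq CPM in each of 3 lysates per state for 6 mRNAs of the iron-responsive list. FTL, FTH1 and EPAS1 are far below 0 in every state, with the old points above the young ones in each; SLC11A2 has 2 ICM points because 1 ICM library had no footprint.

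An old and a young Ribo-seq library stood apart in genes that are high in ICM. AKR1C1, a reductase with 2060 to 2214 mRNA-seq CPM in ICM and 9.93 to 21.2 in young and old, had 1380 to 2357 Ribo-seq CPM in ICM, 212 in young replicate 1, 275 in old replicate 2 and 25.4 to 35.7 in the other young and old libraries. Young replicate 1 and old replicate 2 are also the shallowest of their groups. Without old replicate 2, the differences from young were 1.79 for FTL, 1.12 for FTH1 and 1.15 for EPAS1, all still called. Without young replicate 1 they were 2.26, 1.11 and 1.17, also called. AKR1C1 was itself called higher in load in old than in ICM (2.17), with log2 ratios of 1.85, 4.69 and 0.71 in old replicates 1 to 3. AKR1C2 (2.11) and SPP1 (4.45) were called too, with replicate 2 the highest in each. The part of these reads in the results was not tested otherwise.

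Loads of the translation machinery were mostly below the typical gene when CDS reads were compared. The 79 cytosolic ribosomal proteins had a median load of -0.30, with 39 called lower and 15 higher, 7 under -1 and 2 over 1. Lysate medians were -0.32, -0.77 and -0.17. The lowest was RPS2, a small-subunit protein at the mRNA entry (-2.27), and RPLP0, the base of the ribosomal stalk, had 410, 377 and 475 Ribo-seq CPM against 1680, 1741 and 1384 mRNA-seq CPM (-1.87, edgeR adjusted p = 4.54e-11). The highest was RPL36, with 655, 279 and 528 against 264, 239 and 212 (1.18, edgeR adjusted p = 3.22e-08). Ribosomal protein genes have many pseudogenes, and RPSA (-1.71) shares 93.6% of its 28-base words with other transcripts.

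Elongation factors and other TOP mRNAs had a median of -0.46 over 19 genes, with 10 called lower and 3 higher. EEF2, the translocation factor, stood above its mRNA, with 3784, 3490 and 4847 Ribo-seq CPM against 2433, 2123 and 2595 (0.75, SE 0.16, edgeR adjusted p = 0.000217). Its load was also higher than in young cells, by 0.97 (edgeR adjusted p = 0.000766). EEF1A1, which delivers tRNA to the ribosome, stood below, with 6508, 6506 and 7853 against 10432, 11496 and 9562 (-0.59, SE 0.19, edgeR adjusted p = 0.00814), but 99% of its 28-base words occur in other transcripts. PABPC1, the poly(A)-binding protein, had 95.3, 147 and 133 against 758, 762 and 735 (-2.74, edgeR adjusted p = 1.68e-14), with 87.5% of its words near PABPC3. TPT1, a small growth-related protein, had 663, 557 and 576 against 2031, 2352 and 1725 (-1.69). EEF1G stood at -0.93, NACA at -1.02, NPM1 at -0.80 and RACK1, a ribosome-bound scaffold, at 0.65. Genes were also grouped by whether their RefSeq start had a TOP tract, with no test. The 43 ribosomal protein genes with one had a median of -0.36 (11 higher, 22 lower) and the 20 without -0.23 (2 and 7). The 10 TOP factors with one stood at -0.47, and the 369 other genes with one (-0.04) were near the 6591 without (-0.03). The direction of these classes depends on the mRNA reads counted: with UTR reads added, the median relative to all genes was 0.09 for ribosomal proteins and 0.03 for TOP mRNAs.

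The 35 initiation factors had a median of 0.08, with 9 called higher (25.7%) and 6 lower (17.1%), where all genes gave 25.0% and 28.2%, so the higher share is that of the background. EIF4G2, the factor of cap-independent and re-initiating translation whose own CDS starts at GTG, had 445, 442 and 456 Ribo-seq CPM against 2041, 2158 and 2046 (-2.20, edgeR adjusted p = 1.02e-12), and this load did not move beyond -2.29 or -1.77 in any alternative. EIF4EBP1, which keeps eIF4G from eIF4E, stood at -0.95, EIF4G1 at -0.52 and EIF2S1, the eIF2 subunit phosphorylated in stress, at 0.85. The 22 aminoacyl-tRNA synthetases (median 0.28, 10 higher, 1 lower) ran from AARS at 1.10 to KARS at -0.38, the latter turning to 0.18 with UTR reads added. Lysate medians of the synthetases were 0.26, -0.35 and 0.43.

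The secreted and matrix proteins that fibroblasts make in bulk varied in load. THBS1, an adhesive matrix protein that activates TGF-beta, had 10712, 7980 and 12218 Ribo-seq CPM against 2720, 2448 and 2928 (1.92, SE 0.18, edgeR adjusted p = 1.46e-10). CCN2, a connective tissue growth factor, had 5869, 3916 and 6397 against 1801, 1788 and 2063 (1.51), and fibronectin FN1 13775, 8275 and 14314 against 6794, 4517 and 6630 (1.00, edgeR adjusted p = 2.54e-05). In each of these, every footprint level was above every mRNA level. The 31 other extracellular matrix genes had a median of 0.45, with 18 called higher and 1, the crosslinking enzyme LOXL1 (-0.65), lower. Collagens, in contrast, had a median of -0.03 over 19 genes, with 4 called higher (21.1%) and 1 lower (5.26%). All genes gave 25.0% and 28.2%, so the higher share was near that of the background. The fibril collagens COL1A1 (-0.32, edgeR adjusted p = 0.176), COL1A2 (-0.29, 0.198) and COL3A1 (0.20, 0.283) did not pass. COL1A1 had 18589, 13503 and 12590 Ribo-seq CPM against 19285, 16140 and 19894, the footprint level of replicate 1 lying within the mRNA range and those of replicates 2 and 3 below it. COL8A1 (0.92), COL6A3 (0.82), COL5A2 and COL12A1 (0.65 each) were called higher, and COL27A1 lower (-2.94, 7 footprints). With UTR reads on the mRNA side the collagen median relative to all genes was 0.51.

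Secreted proteases and their inhibitors, part of what senescent cells release, had a median of 0.77 over 17 genes, with 11 called higher and none lower. Lysate medians were 0.77, 0.41 and 0.63. The collagenase MMP1 stood at 0.77. TIMP3, an inhibitor of metalloproteases, stood at 1.53 but turned to -0.29 with UTR reads added, while MMP2 (-0.13) and ADAMTS2 (-0.38) did not pass. Cytokines and growth factors of the senescence-associated secretory phenotype (SASP) had a median of 0.30 over 24 tested of 36 listed, 11 higher (45.8%) and 6 lower (25.0%). All genes gave 25.0% and 28.2%, so the lower share was near that of the background. KISS1, the precursor of kisspeptin, had 587, 393 and 632 against 223, 154 and 171 (1.59, edgeR adjusted p = 1.98e-11), and INHBA, the activin A subunit, 155, 131 and 167 against 62.7, 50.7 and 63.0 (1.35). IGFBP5 stood at 1.94, GDF15 at 0.72 and IGFBP3 at 0.61, and with UTR reads IGFBP5 turned to -0.51 and IGFBP3 to -0.13. The growth factors called lower were VEGFA (-1.24, no footprint in replicate 2), TGFB1 (-0.96), VEGFC (-0.92), FGF7 (-0.74) and FGF2 (-0.54), with the binding protein IGFBP4 (-0.66). IL6 (11 CDS footprints in all), CXCL8 (31) and MMP3 (25) did not pass the filter and have no load here.

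**Figure D5:**
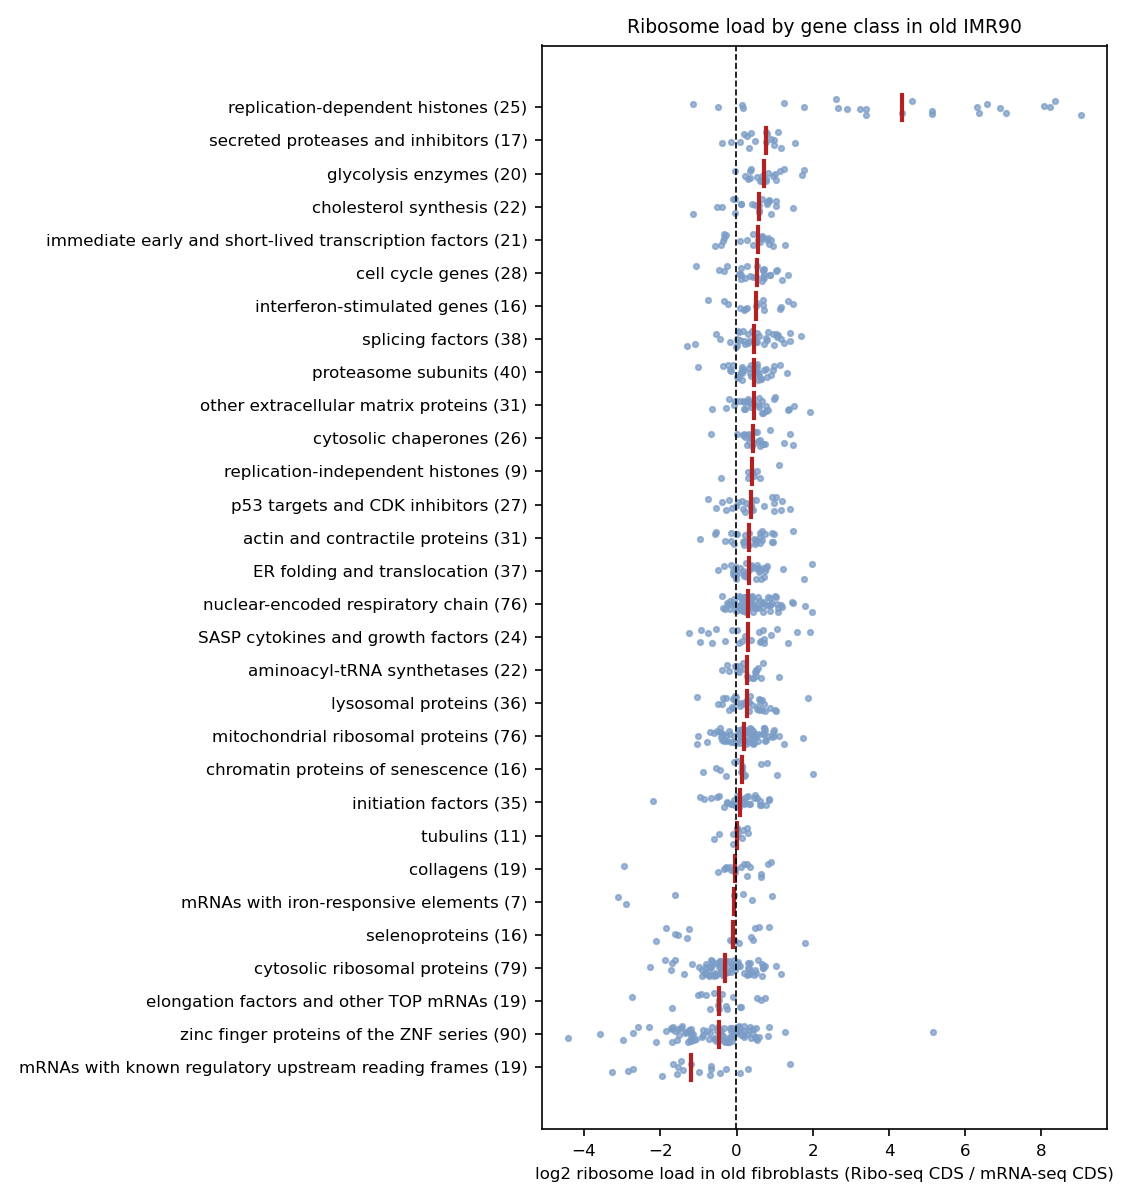
Each point is the log2 load of 1 tested member of the class named at left, with the number tested in parentheses, and the red bar is the class median. Medians run from -1.18 for mRNAs with known regulatory upstream reading frames to 4.34 for replication-dependent histones; the other classes lie between -0.47 and 0.77 and overlap widely.

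Glycolytic enzymes and glucose transporters had mostly high loads, with 17 of 20 called higher, none lower, and a median of 0.72 where that of all genes was -0.02. Lysate medians were 0.70, 0.34 and 0.88. PKM, pyruvate kinase, had 7242, 5342 and 6916 Ribo-seq CPM against 3360, 3242 and 3084 (1.01), and SLC2A1, the glucose transporter GLUT1, 1530, 1295 and 1797 against 701, 669 and 734 (1.15). HK2, hexokinase, stood at 1.72 and ALDOC at 1.76, with 2.83% and 4.79% of their words near another abundant transcript. GAPDH (0.23), TPI1 (-0.05) and HK1 (0.30) did not pass. Enzymes of cholesterol synthesis had a median of 0.58 over 22 genes (14 higher, 1 lower), from the sterol oxidase MSMO1 (1.48) to SREBF2, the transcription factor of the pathway, with 2 upstream ATGs (-1.15).

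Genes of protein quality control and of mitochondria had median loads of 0.21 to 0.46. The counts called are read against 25.0% higher and 28.2% lower over all genes. Lysate medians, over genes of at least 50 CPM, were 0.11, -0.18 and 0.12 for all genes. They were 0.33, -0.16 and 0.44 for the respiratory chain, 0.45, -0.14 and 0.38 for endoplasmic reticulum folding and 0.42, -0.01 and 0.51 for the proteasome. Chaperones stood at 0.49, 0.13 and 0.61 and lysosomal proteins at 0.41, 0.03 and 0.17. In lysate 2 the respiratory chain and endoplasmic reticulum folding were close to all genes. Of 26 cytosolic chaperones, 19 were called higher and 1 lower (median 0.44), with HSPA8 at 0.87, HSPA1A at 1.49 (96.0% of its words shared, as with its twin gene) and DNAJB1 at -0.68. Of 40 proteasome subunits, 24 were higher and 2 lower (0.46), from PSMB3 (1.33) to the activator PSME4 (-1.02). Of 37 genes of folding and translocation in the endoplasmic reticulum, 17 were higher and 1 lower (0.32), the lowest being CRELD2 (-0.47). Lysosomal proteins had a median of 0.28 over 36 genes, 15 higher and 4 lower, with CTSZ at -1.03 and CD63 at 0.12, which did not pass. Nuclear-encoded subunits of the respiratory chain had 35 of 76 higher and 2 lower (0.31), led by NDUFB6 (1.99), and mitochondrial ribosomal proteins 24 of 76 higher (31.6%) and 6 lower (0.21), from MRPS21 (1.74) to MRPL33 (-1.03). Actin and contractile proteins (median 0.33, 16 of 31 higher, 3 lower) ran from VCL, vinculin (1.47), to TMSB10, thymosin (-0.95), with ACTB at -0.31 (edgeR adjusted p = 0.123). Tubulins (0.01, 1 of 11 higher and 2 lower) ran from TUBB4B (0.31) to TUBB6 (-0.58). Mitochondrial ribosomal proteins of at least 50 CPM had a median relative to all genes of -0.06, and their median log2 ratios in the 3 lysates were -0.04, -0.26 and 0.17.

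Selenoproteins, which read a UGA stop codon as selenocysteine, split in opposite directions around a median of -0.09 over 16 tested of 19. Of the 16, 37.5% were called lower and 25.0% higher, where all genes gave 28.2% and 25.0%, so the higher share is that of the background. Called lower were SELENOW (-2.10), GPX4 (-1.86), GPX1 (-1.62), SELENOH (-1.53), SEPHS2 (-1.30) and SELENON (-1.25). GPX4, the glutathione peroxidase of membrane lipids, had 71.8, 65.5 and 87.1 Ribo-seq CPM against 288, 272 and 261, and GPX1 143, 98.3 and 140 against 431, 410 and 424, in both cases without overlap. Called higher were SELENOI (1.80), SELENOK (0.85), SELENOS (0.60) and TXNRD1, thioredoxin reductase (0.48).

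Genes of arrest, the cell cycle and chromatin had class medians between 0.14 and 0.53. Targets of p53 and CDK inhibitors had a median of 0.37 over 27 genes, 10 higher and 1, PLK3 (-0.75), lower. CDKN2A, which encodes the CDK inhibitor p16, had 181, 65.5 and 157 Ribo-seq CPM against 82.3, 71.7 and 93.8 (0.93, edgeR adjusted p = 3.72e-06). Replicate 2 was below its mRNA, and the call was lost without replicate 1 (0.56). CDKN1A, which encodes the CDK inhibitor p21, stood at 0.36 (edgeR adjusted p = 0.0432) and turned to -1.02 with UTR reads. Cell cycle genes had a median of 0.53 over 28 genes (14 higher, 1 lower), from TK1 (1.36) to MKI67 (-1.06). Chromatin proteins of senescence had a median of 0.14 over 16 (3 higher, none lower), with LMNA at 1.05, HMGB1 at 0.19 (edgeR adjusted p = 0.275), HMGB2 at 0.15 (0.65) and LMNB1 at 0.64 (0.0987), and CBX5, a heterochromatin protein, at 2.01, turning to -0.64 with UTR reads. Splicing factors (0.46, 21 of 38 higher, 4 lower) ran from TRA2A (1.70) to HNRNPC (-1.30), immediate early and short-lived transcription factors (0.57, 13 of 21 higher, 2 lower) from KLF2 (1.26) to EGR1 (-0.57), and interferon-stimulated genes (0.51, 8 of 16 higher, 2 lower) from MX1 (1.49) to TAP1 (-0.75). Lysate medians of the interferon-stimulated genes of at least 50 CPM were 0.60, -0.22 and 0.87. VIM stood at 0.53 and SPARC at 0.22, the latter not past the test.

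Replication-dependent histones, whose messages end in a stem-loop in place of a poly(A) tail, had a median load of 4.34 over 25 tested of 59 listed, with 21 called higher and 1 lower. The mRNA-seq was poly(A)-enriched, so its level for these genes counts only the polyadenylated messages, and members that passed the filter on footprints alone had to be high. HIST1H1D had 39.8, 49.2 and 37.9 Ribo-seq CPM against 0, 0 and 0.141, a fitted load of 9.05 that is no bound. HIST1H1C, with the most mRNA-seq reads, had 285, 311 and 246 against 75.7, 83.5 and 84.7 (1.77), and HIST1H2BC was the one called lower (-1.14). Replication-independent histones, which are polyadenylated, had a median of 0.41 over 9 genes (5 higher, none lower), led by the linker histone H1FX (1.11), and with UTR reads added the median relative to all genes was -0.20.

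Load differed between old and other states in few genes. Against young, 19 of 9004 genes were higher in old (0.211%) and 41 lower (0.455%). Of the 41 lower genes, 30 were histones. Of the 25 tested replication-dependent histones described above, 16 were called lower and 0 higher. Their mRNA-seq counts only polyadenylated messages. Not all 30 are separate measurements. HIST2H2AA3 and HIST2H2AA4 had the same footprint totals and difference (-4.48), as did HIST2H4A and HIST2H4B (-3.36). Among lower genes whose log2 ratios did not overlap between the states, the lowest were HIST1H4D (-7.93, with no young mRNA-seq read, so no bound), HIST1H2BB (-6.08), HIST1H2BD (-5.75) and HIST1H2BG (-5.41). HIST1H2BD had 188 footprints and 72 mRNA-seq reads over the young lysates and 13 and 337 over the old ones, so both sides of the ratio differed. Among higher genes without overlap the highest were TAGLN3 (4.49, with 5.96% of its words near TAGLN), the oxygenase CYP1B1 (3.00), the Ran-binding protein RANBP1 (2.17) and OSGIN1 (2.09). CYP1B1 rests on old replicate 2, at 81.9 Ribo-seq CPM against 5.22 and 9.47 in the other old lysates, and without it the difference was 1.97 (edgeR adjusted p = 0.504). Without old replicate 3, TAGLN3 stood at 3.77 and OSGIN1 at 2.09 (edgeR adjusted p = 0.131 each), and without young replicate 3 OSGIN1 stood at 2.00 (edgeR adjusted p = 0.448). Against ICM, 27 genes were higher in old (0.300%) and 12 lower (0.133%). Of the 39, 16 had fewer than 10 footprints in ICM and 7 had none, among them MRNIP, RRP1, RIN1 and SIVA1, whose fitted differences are no bounds. Among lower genes without overlap the lowest were DHRS2 (-7.21), NCAPG (-3.94), the smooth muscle actin ACTG2 (-1.89) and APC (-1.78). DHRS2 rests on 3 footprints in old and 11 in ICM with 1 ICM mRNA-seq read, and lost its call with DESeq2 (-6.94), without the block (-6.74), without old replicate 1 (-6.79) or 3 (-6.10) and without ICM replicate 3 (-4.61). NCAPG, on 7 ICM footprints, stood at -2.34 with UTR reads added (edgeR adjusted p = 0.277) and also lost its call with no filter on low counts (-3.84) and without old replicate 1 or 3 or ICM replicate 2 or 3 (-3.87 to -3.25). APC lost its call with DESeq2 (-1.92), with no filter on low counts (-1.68) and without old replicate 1 or 3 or ICM replicate 1 or 3 (-1.92 to -1.53), and ACTG2 kept its call in every alternative run. None of these runs dealt with reads placed between actin genes, and the part of such reads was not tested. Mean ACTG2 mRNA-seq CPM was 1574 in old and 94.9 in ICM, and mean Ribo-seq CPM 2133 and 556. Both comparisons use the same old libraries.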

How the data were processed

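Ribo-seq and mRNA-seq were made by the study from the same lysates. The deposited tables hold estimated counts per gene and region (14.1% to 23.2% of values above 0 are not whole), which the authors made with, per the processing notes, GRCh37, STAR 2.6.0c, featureCounts, DESeq2 and deepTools in unstated roles. The annotation and the placement of reads that map to several genes in these tables are not given in the sources used here (counting of unique reads is stated for the RNA-seq the study made separately). CDS counts were rounded and fitted with edgeR 4.0.16 (R 4.3.3, quasi-likelihood, TMM, lysate as block) in the 6 old libraries, and for differences between states in all 18 libraries; a load was called at an adjusted p under 0.05. The study's own test, anota2seq, was not used. The pairing comes from the shared lysates; deviations of paired libraries correlated at 0.081, 0.022 and 0.061.

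Symbols were matched to RefSeq names (34214 current, 1033 older) and transcripts to GENCODE v44 on GRCh37. Of 13 listed genes encoded in mitochondria, 0 matched. Named genes were the 8 highest and 8 lowest called loads of at least 50 CPM with the same sign in all lysates, the highest, lowest and most abundant member of each class, and a fixed list; for differences, the 4 highest and 4 lowest without overlap. Other members named were chosen after their values were seen. The members, lists and rules were chosen with earlier results of these data known, and lists were described by counts and medians without a set test. On simulated data with 200 genes changed 2-fold, 88% were called in old (5 false calls), 33% against young (0) and 13% against ICM (2). Some members are not reported here.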

Additional observations from a re-analysis of the deposited data

Results flagged for a closer look

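The load differed between states by the test of the difference itself in the following genes, as log2 of old less the other state. Against young these were HIST1H4D (-7.93), HIST1H2BB (-6.08), HIST1H2BD (-5.75), HIST1H2BG (-5.41), TAGLN3 (4.49), CYP1B1 (3.00), RANBP1 (2.17), OSGIN1 (2.09), FTL (1.88), EPAS1 (1.14) and FTH1 (1.03). Against ICM these were MRNIP (11.48), RRP1 (10.38), RIN1 (10.26), SIVA1 (10.14), FTL (1.95), FTH1 (1.38), APC (-1.78), ACTG2 (-1.89), NCAPG (-3.94) and DHRS2 (-7.21). The values of HIST1H4D, MRNIP, RRP1, RIN1 and SIVA1 are no bounds, since 1 side had no reads. Calls against young were lost in some alternatives for TAGLN3, CYP1B1, OSGIN1, EPAS1 and FTH1. Those against ICM were lost in some for MRNIP, RRP1, RIN1, SIVA1, APC, NCAPG and DHRS2.

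In data outside the comparisons, 5 symbols (OR1F1, TRIM7, TRIM55, MYNN and DPP9) held 65.4%, 98.1% and 94.6% of all 5′ UTR footprints in old replicates 1, 2 and 3. They were left out of the 5′ UTR counts by number of upstream ATGs.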

How the results depend on the processing

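Loads were called for 4623 genes in old, of which DESeq2 called 2388 among its 2389 (956 higher, 1433 lower), a filter of 50 CPM left 2430 calls on 3667 genes, and an absolute log2 load over 1 left 1902. Plain CPM shifted the median of all genes to -0.13 and the split to 1828 higher and 2912 lower. Without 1 old lysate, 2207 to 4982 were called, the fewest without replicate 1 and the most without replicate 2. The lysate is a block because both libraries come from it. Without the replicate block, 4704 loads were called in old, 218 genes (in place of 60) differed from young and 69 (in place of 39) from ICM. Against young, a filter of 50 CPM left 30 genes, and leaving out 1 lysate 31 to 63. The fewest came without old replicate 3, and 34 and 35 came without young replicates 2 and 3. Against ICM, DESeq2 called 23, 6 higher and 17 lower where edgeR called 27 and 12, the filter left 11, and leaving out 1 lysate 10 to 61. The fewest came without old replicate 1, 15 without old replicate 3 and the most without ICM replicate 1. RLE scaling gave 23 higher and 21 lower genes and plain CPM 23 and 23. In these libraries 33% and 13% of simulated 2-fold changes were called. The median load of each class is given here relative to that of all genes tested, and the cause of each shift was not tested. With UTR reads added on the mRNA side it was 0.089 for cytosolic ribosomal proteins, 0.035 for elongation factors and other TOP mRNAs, 0.44 for initiation factors, 0.51 for collagens, 0.95 for other extracellular matrix proteins, 0.44 for secreted proteases, 0.12 for SASP factors, 0.54 for ER folding, 0.91 for chaperones, 1.13 for glycolysis, 0.51 for actin, 0.56 for tubulins, 0.72 for the respiratory chain, 0.51 for mitochondrial ribosomal proteins, 0.88 for the proteasome, 0.85 for synthetases, 0.72 for splicing factors, 0.49 for lysosomal proteins, 1.03 for cell cycle genes, 0.042 for p53 targets, 0.33 for chromatin proteins and -0.20 for replication-independent histones. The same setting turned the sign of CDK6 (-0.53), CDKN1A (-1.02), IGFBP3 (-0.13), TIMP3 (-0.29), IGFBP5 (-0.51), COX6A1 (0.087), PSMD2 (0.41), KARS (0.18), CBX5 (-0.64), EIF1 (-0.64) and EIF3H (0.061). With a filter of 50 CPM the medians were -0.57 for TOP mRNAs, 0.022 for initiation factors, -0.83 for iron-responsive mRNAs, 0.66 for proteases, 0.56 for SASP factors, 0.31 for chaperones, 0.62 for glycolysis, -0.072 for tubulins, -0.056 for mitochondrial ribosomal proteins, 0.34 for the proteasome, 0.35 for splicing factors, 0.52 for cholesterol synthesis and 1.67 for replication-dependent histones. With no filter they were -0.30 for TOP mRNAs, 0.24 for initiation factors, 0.36 for collagens, 0.95 for proteases, 0.58 for chaperones, 0.88 for glycolysis, 0.49 for actin, 0.16 for tubulins, 0.38 for mitochondrial ribosomal proteins, 0.62 for the proteasome, 0.59 for splicing factors, 0.74 for cholesterol synthesis, 0.53 for p53 targets, 0.31 for chromatin proteins and 0.57 for replication-independent histones. With mRNA-seq thinned to the depth of the footprints they were -0.32 for TOP mRNAs, 0.67 for proteases, 0.38 for splicing factors and 0.55 for cholesterol synthesis. Proteases and cholesterol synthesis stood at 0.67 and 0.56 with DESeq2 and at 0.69 and 0.55 without the block, and cholesterol synthesis at 0.65 with filterByExpr. Restricting to genes without near copies, an alternative chosen after seeing the data, gave -0.36 for TOP mRNAs, 0.66 for proteases, 0.64 for actin and -0.42 for tubulins. Leaving out 1 old lysate gave -0.48 to -0.38 for TOP mRNAs, -1.22 to -0.74 for mRNAs with upstream reading frames, -0.13 to 0.28 for iron-responsive mRNAs, 0.50 to 0.78 for proteases, 0.30 to 0.48 for SASP factors, 0.28 to 0.46 for actin, 0.49 to 0.63 for cholesterol synthesis, 0.15 to 0.35 for lysosomal proteins, 0.22 to 0.51 for p53 targets, 0.40 to 0.60 for replication-independent histones and 3.61 to 5.26 for replication-dependent histones. RLE scaling, plain CPM and the fit of all 18 libraries moved none of the 30 class medians by more than the spread of the lysates.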
